A study of Mus musculus with 6 samples.

Results

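The genes described here encode receptors through which bone marrow neutrophils sense hematopoietic growth factors and cytokines. They are Csf3r, Csf2ra, Csf2rb, Csf2rb2, Il6ra, Il4ra, Ifngr1, Ifnar1, Il17ra and Il10rb, chosen by their symbols, and they make up 10 of the 52636 genes listed in the deposited expression table. Expression was measured by RNA sequencing of primary neutrophils from the bone marrow of C57BL/6N mice aged 10 weeks, in 3 libraries labelled WT and 3 from mice of genotype LRP5f/f/Lyz2Cre+, called LRP5-null here. In the latter, Cre recombinase is expressed from the Lyz2 locus, which is active in neutrophils but also in monocytes and macrophages, and both alleles of Lrp5, a receptor of the LDL receptor family, are floxed. The WT label names no allele, and the labels do not give the floxed or Cre alleles of the WT mice or the number of animals behind a library. The p-values therefore measure the spread between these libraries, which may be technical.

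Receptors of this kind have no kinase of their own. Most of them sit on the cell surface as a ligand-binding chain that joins a second, often shared, chain, and the assembled complex activates Janus kinases, which phosphorylate STAT transcription factors. In the neutrophil lineage, signaling through the G-CSF receptor drives granulopoiesis and the release of mature cells from the marrow, GM-CSF prolongs survival and primes the cells, and interferons, IL-4, IL-6, IL-10 and IL-17 adjust their response to infection.

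The libraries held 249841492 to 340580330 reads of 94 bases, and the values are TPM, in which every library has the same total and gene length has been taken out, so that levels of different genes can be compared. All 11 neutrophil markers examined had a mean of at least 1 TPM, among them Ly6g, Cxcr2 and S100a8. Lrp5 itself was not lower in the LRP5-null libraries (1.68 to 2.07 TPM against 1.12 to 1.42 TPM in WT), so every direction below rests on the labels, whereas Lyz2, the site of the Cre insertion, was lower (13360 to 14027 TPM against 24797 to 26791 TPM, limma adjusted p = 0.00351). Ribosomal RNA took 3.30% of the reads of WT replicate 3, which stood apart from the other WT libraries (1.20% and 1.30%). In the LRP5-null libraries this share was 2.69% to 2.98%.

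All 10 receptor genes were expressed in every library, over a wide range of levels. Csf3r, which encodes the G-CSF receptor, was by far the most abundant, at a mean of 1097 TPM over the 6 libraries, and ranked 65 among all genes listed. The others followed in the order Csf2ra (256 TPM), Il17ra (186 TPM), Csf2rb (148 TPM), Il10rb (95.6 TPM), Ifngr1 (85.4 TPM), Il4ra (66.4 TPM), Il6ra (51.1 TPM), Ifnar1 (33.8 TPM) and Csf2rb2 (18.6 TPM). This order was the same in each of the 6 libraries. Of the 9 pairs of neighbours, only Il17ra and Csf2rb had ranges that overlapped across libraries, with Il17ra as low as 168 TPM in one library and Csf2rb as high as 172 TPM in another. Csf3r alone made up 52.8% ± 0.66 (SD, n = 3) of the summed TPM of the 10 genes in WT and 54.7% ± 0.51 (SD, n = 3) in LRP5-null libraries.

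**Figure D1:**
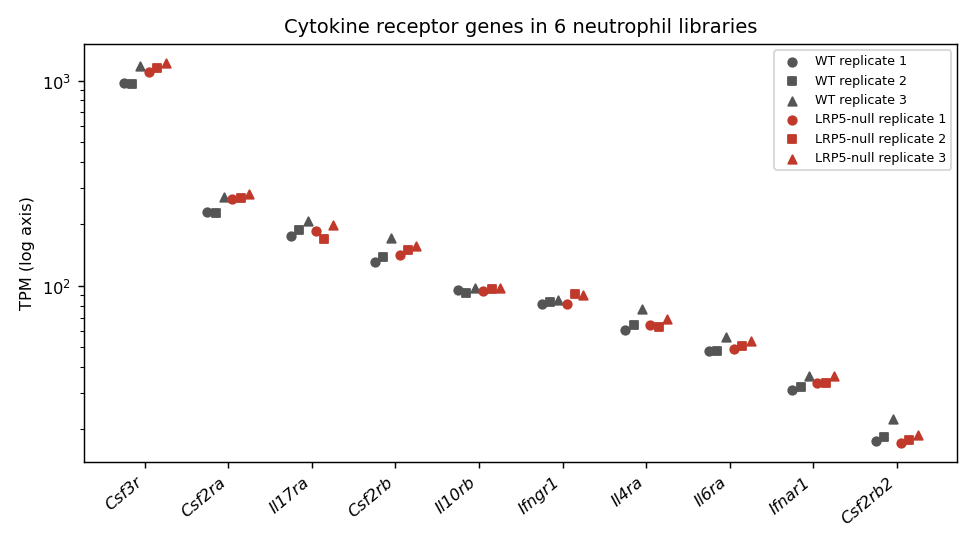
TPM (log axis) of the 10 cytokine receptor genes, ordered by their mean, with 1 point per library (grey, WT; red, LRP5-null; shape, replicate number). Csf3r lies between 967 and 1218 TPM and Csf2rb2 between 17.1 and 22.3 TPM, and within each gene the points of the WT and LRP5-null libraries overlap.

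To determine whether LRP5 deficiency was accompanied by a change in receptor expression, the LRP5-null libraries were compared with WT by limma on log2(TPM + 1) over the 9775 genes that averaged 1 TPM or more, and a gene was called at an adjusted p under 0.05 (Benjamini-Hochberg). All 10 receptor genes passed this filter. None of them was called, where 0.532% of all genes tested were, and none had an unadjusted p under 0.05 in limma, where 23.5% of all genes tested did. The groups overlapped for each of the 10 genes, whereas 29.7% of all genes tested had groups without overlap. The median log2 fold change of the receptor genes was 0.025, with 7 above and 3 below 0, beside 0.040 for all genes tested. The median size of the change, regardless of sign, was 0.047 for the receptor genes and 0.14 for all genes tested. By mean level the receptor genes stood above 60.5% (Csf2rb2) to 99.3% (Csf3r) of all genes tested. Genes of matched level were not compared. These are bulk samples, in which fewer cells of a type and less RNA per cell cannot be told apart.

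Among the growth factor receptors, Csf3r was 971, 967 and 1175 TPM in WT replicates 1 to 3 and 1098, 1151 and 1218 TPM in LRP5-null replicates 1 to 3. WT replicate 3 lay among the LRP5-null libraries, and the other WT libraries lay below all of them. The log2 fold change was 0.16 (95% interval −0.051 to 0.37, limma adjusted p = 0.322). Csf3r lies on chromosome 4 from 125701794 to 125722219 on the plus strand of NCBIM37 (mm9), with 16 exons in the longest coding transcript.

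Csf2ra, the ligand-binding chain of the GM-CSF receptor, showed the same arrangement, at 228, 225 and 269.8 TPM in WT and 265, 268 and 281 TPM in LRP5-null libraries. WT replicates 1 and 2 were again below every LRP5-null library, and WT replicate 3 was not. Its change of 0.17 on this scale (95% interval −0.024 to 0.37) had the smallest p among the 10 genes (limma adjusted p = 0.256, unadjusted p = 0.0763).

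Csf2rb encodes the common beta chain, which joins the alpha chains for GM-CSF, IL-3 and IL-5 and carries the signal. It was 130.1, 138 and 172 TPM in WT and 142, 149 and 157 TPM in LRP5-null libraries, so that WT replicate 3 was the highest of all and the other WT libraries the lowest. The log2 fold change was 0.036 (95% interval −0.22 to 0.29, limma adjusted p = 0.868). Csf2rb2 encodes the second beta chain of the mouse, which serves IL-3 alone. It was 17.6, 18.3 and 22.3 TPM in WT and 17.1, 17.7 and 18.8 TPM in LRP5-null libraries, and WT replicate 3 was again the highest. Its log2 fold change was −0.11 (95% interval −0.35 to 0.13, limma adjusted p = 0.540), the lowest of the 10 genes.

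The beta chain genes are neighbours on chromosome 15, Csf2rb from 78156420 to 78184277 on the plus strand and Csf2rb2 from 78112947 to 78136052 on the minus strand (NCBIM37, mm9). Their coding sequences, of 2691 and 2637 bases in GENCODE M1, were identical at 95.2% of aligned positions outside gaps. Of all windows of 94 bases, the read length given in the deposited read summary, 7.71% of those in the longest coding Csf2rb transcript were also found in Csf2rb2, and 7.55% the other way, so part of the reads could be divided between them in the authors' quantification. The methods state shorter, single-end reads, for which the share was not computed, whereas the summary lists paired ends. The longest stretch without a difference, of 242 bases, is shown because a read that falls wholly inside it matches both genes. It lies in exon 14 of both, at chr15:78179007-78179248 on the plus strand in Csf2rb and at chr15:78115060-78115301 on the minus strand in Csf2rb2, and covers coding positions 2083 to 2324 of each.
Csf2rb and Csf2rb2, shared: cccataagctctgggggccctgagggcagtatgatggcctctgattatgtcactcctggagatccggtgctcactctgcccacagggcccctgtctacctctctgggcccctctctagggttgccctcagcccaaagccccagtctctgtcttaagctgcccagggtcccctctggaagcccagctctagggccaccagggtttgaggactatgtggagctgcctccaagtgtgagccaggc

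The stretch of 94 bases with the most differences is shown for contrast. It holds 17 differing positions, in capitals, and spans exons 4 and 5 of both genes, at coding positions 320 to 413 of Csf2rb (chr15:78169339-78170886, intron included) and 323 to 416 of Csf2rb2 (chr15:78123283-78124852, intron included).
Csf2rb: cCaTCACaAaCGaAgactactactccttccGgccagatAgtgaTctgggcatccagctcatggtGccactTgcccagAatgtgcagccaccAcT
Csf2rb2: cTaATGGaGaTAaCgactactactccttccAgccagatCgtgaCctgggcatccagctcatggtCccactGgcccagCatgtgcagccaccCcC

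Of the other 8 members, only Il10rb shared such windows with another protein-coding gene. Of its windows, 27.3% also lie in annotated transcripts of its neighbour Ifnar2, so the values of Il10rb and Ifnar2 depend on how the authors' annotation separates them.

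The binding chains for IL-6 and IL-4 moved little. Il6ra was 48.2, 48.2 and 56.2 TPM in WT and 49.0, 51.1 and 53.7 TPM in LRP5-null libraries, with WT replicate 3 the highest and the other WT libraries the lowest. The log2 fold change was 0.013 (95% interval −0.18 to 0.21, limma adjusted p = 0.940). Il4ra, whose product binds IL-4 and serves in receptors for both IL-4 and IL-13, was 60.8, 64.3 and 76.9 TPM in WT and 64.0, 63.0 and 69.1 TPM in LRP5-null libraries. Here the LRP5-null libraries fell between the WT libraries, with a log2 fold change of −0.035 (95% interval −0.27 to 0.20, limma adjusted p = 0.855).

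The interferon receptor chains were likewise close. Ifngr1, the ligand-binding chain for interferon gamma, was 81.4, 82.9 and 85.4 TPM in WT and 81.9, 90.7 and 90.1 TPM in LRP5-null libraries. LRP5-null replicates 2 and 3 were above all WT libraries and LRP5-null replicate 1 was among them (log2 fold change 0.071, 95% interval −0.091 to 0.23, limma adjusted p = 0.560). Ifnar1, a chain of the receptor for type I interferons, was 30.9, 32.2 and 36.5 TPM in WT and 33.5, 33.7 and 36.2 TPM in LRP5-null libraries, the highest value again being that of WT replicate 3 (log2 fold change 0.054, 95% interval −0.14 to 0.25, limma adjusted p = 0.727).

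Il17ra, which belongs to a receptor family of its own and signals through the adaptor Act1 rather than Janus kinases, was 175, 186 and 207 TPM in WT and 184, 168 and 199 TPM in LRP5-null libraries. The groups were interleaved (log2 fold change −0.041, 95% interval −0.25 to 0.17, limma adjusted p = 0.815). Il10rb, a chain shared by the receptors for IL-10, IL-22 and lambda interferons, was the steadiest of the 10, at 95.7, 92.2 and 97.7 TPM in WT and 93.8, 96.1 and 98.0 TPM in LRP5-null libraries. Its coefficient of variation over the 6 libraries was 2.34%, whereas that of the other genes ran from 4.80% for Ifngr1 to 10.2% for Csf2rb2. The log2 fold change was 0.011 (95% interval −0.13 to 0.16, limma adjusted p = 0.931). Over the 10 genes, the limits of the intervals reached from −0.35 to 0.37, and a p that misses the threshold does not show that the groups had equal levels.

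**Figure D2:**
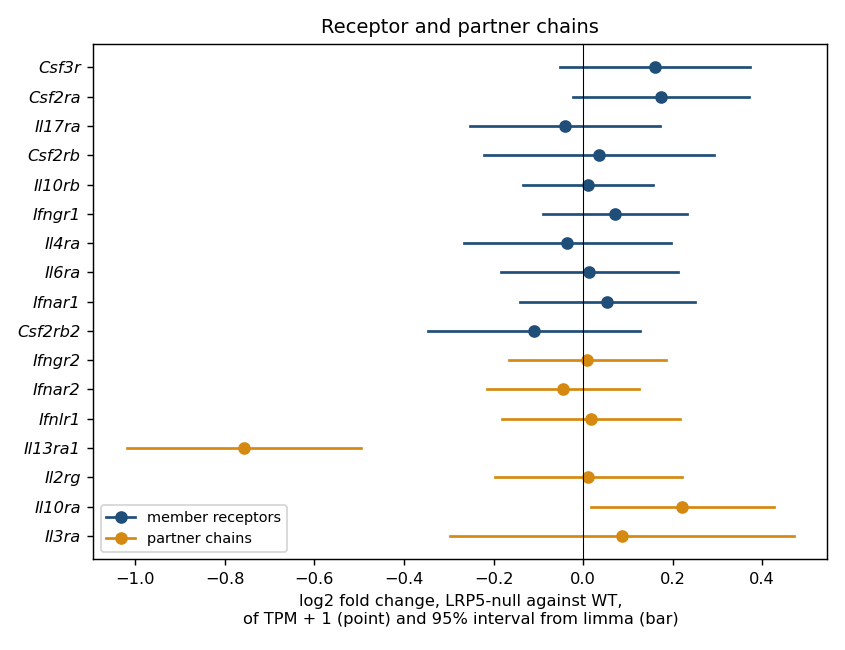
Log2 fold change of TPM + 1, LRP5-null against WT (point), with the 95% interval from limma (bar), for the 10 receptor genes (blue) and the 7 partner chains with a mean of at least 1 TPM (orange), each set ordered by level. The intervals of all 10 receptor genes include 0, while those of the partner chains Il13ra1 (−1.02 to −0.50) and Il10ra (0.018 to 0.43) do not.

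In the summed TPM of the 10 genes, most of the spread within WT came from 1 library. WT replicate 3 was the highest WT library for all 10 genes, against 50.4% of all genes tested, and the highest of all 6 libraries for 6 genes, against 21.0%. Within the LRP5-null group, replicate 3 was the highest for 9 of the 10, against 53.3% of all genes tested. The summed TPM of the 10 genes was 1839 and 1854 in the first WT libraries, 2198 in WT replicate 3, and 2028, 2089 and 2220 in LRP5-null replicates 1 to 3.

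The calls depended on WT replicate 3. When it was left out, the calls included Csf3r, whose log2 fold change was then 0.25 (limma adjusted p = 0.0338), and Csf2ra, with 0.26 (limma adjusted p = 0.0272), in a fit that called 12.1% of all genes tested as higher. Set against WT replicate 3 alone, the WT library whose ribosomal share is nearest to theirs, the LRP5-null libraries had log2 fold changes of −0.025 for Csf3r (limma adjusted p = 0.882) and 0.0060 for Csf2ra (limma adjusted p = 0.968). With 1 WT library, the spread in this comparison came from the LRP5-null libraries alone, and WT was assumed to vary like them. In that comparison all LRP5-null libraries were below WT replicate 3 for Csf2rb, Csf2rb2, Ifnar1, Il17ra, Il4ra and Il6ra, an order seen for 33.8% of all genes tested, with log2 fold changes from −0.31 for Csf2rb2 to −0.081 for Ifnar1. In a fit that included the percent of ribosomal reads, the log2 fold changes were 0.029 for Csf3r and 0.058 for Csf2ra. With trends in GC content and transcript length removed they were 0.081 and 0.019. The share of intronic reads also moved with the groups, from 7.78% to 9.0% in WT and from 10.6% to 11.2% in LRP5-null libraries. The part of library preparation in these differences was not tested.

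**Figure D3:**
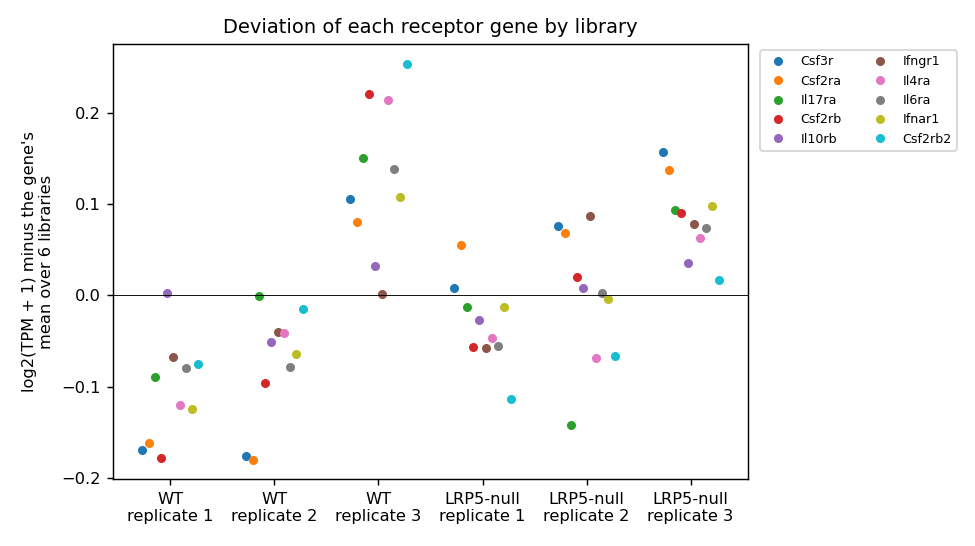
Log2(TPM + 1) of each receptor gene minus that gene's mean over the 6 libraries, by library, with 1 colour per gene. All 10 points of WT replicate 3 lie above 0, and it is the highest WT library for each gene.

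**Figure D4:**
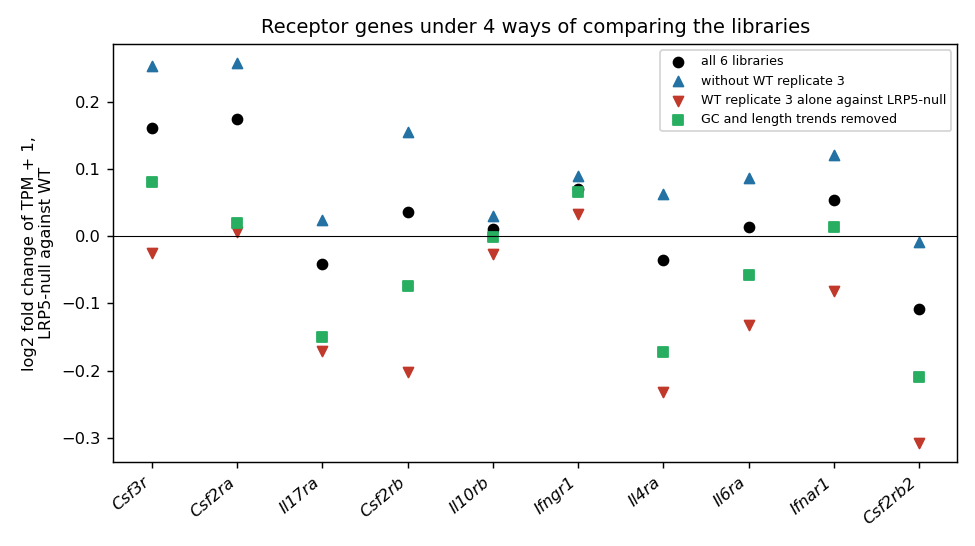
Log2 fold change of TPM + 1 of the 10 receptor genes, LRP5-null against WT, with all 6 libraries, without WT replicate 3, against WT replicate 3 alone, and with trends in GC content and transcript length removed. Csf3r moves from 0.25 without WT replicate 3 to −0.025 against it alone, and Csf2rb2 is below 0 in all 4.

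Most of these chains work only with a partner, and the partners were examined next. Of 12 partner chains listed, 7 passed the filter of 1 TPM. The missing ones include Il6st, which encodes gp130, the signal-transducing chain for IL-6, at 0.096 to 0.14 TPM in every library beside more than 48 TPM of Il6ra. They also include Il17rc, the partner of Il17ra for IL-17, listed at 0 in 5 libraries and at 0.010 TPM in LRP5-null replicate 2. Il5ra, the IL-5 binding chain, was at 0.15 to 0.22 TPM. Il22ra1, the partner of Il10rb for IL-22, did not exceed 0.025 TPM, and Il20ra was listed at 0 throughout.

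Among those measured, Ifngr2 (61.7 to 68.5 TPM), Ifnar2 (49.6 to 56.5 TPM), Ifnlr1 (42.6 to 49.8 TPM), which binds lambda interferons, and Il2rg (20.7 to 25.1 TPM), the common gamma chain, had log2 fold changes from −0.045 to 0.018, each with overlapping groups (limma adjusted p from 0.736 to 0.953). Il3ra, the IL-3 binding chain, was low, at 3.73 to 6.34 TPM, and its groups overlapped as well (log2 fold change 0.087, limma adjusted p = 0.778).

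Il13ra1 was the 1 partner chain called, in the lower direction, in which 0.266% of all genes tested were called. It encodes the IL-13 binding chain that joins the IL-4 receptor alpha chain in the type II receptor, and lies on chromosome X from 33652105 to 33711254 on the plus strand (NCBIM37, mm9). It was 64.3, 60.1 and 47.7 TPM in WT and 32.5, 33.5 and 33.9 TPM in LRP5-null libraries. Every LRP5-null library was below every WT library, and WT replicate 3 was the nearest to them. The log2 fold change was −0.76, with a standard error of 0.11 (limma adjusted p = 0.0447). This call was kept in 6 of 18 other ways of fitting and, of the 6 fits that left out a library, only in the one without WT replicate 3 (limma adjusted p = 0.00378, and from 0.0902 to 0.210 in the rest). The direction was kept in all 18, at −0.51 against WT replicate 3 alone and −0.59 with GC and length trends removed (limma adjusted p = 0.108, with the spread of the LRP5-null libraries alone, and 0.0126).

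Il10ra, the ligand-binding chain for IL-10, was 15.6, 16.3 and 18.8 TPM in WT and 19.2, 19.8 and 20.5 TPM in LRP5-null libraries. The groups did not overlap, although WT replicate 3 came close, and the gene was not called (log2 fold change 0.22, unadjusted p = 0.0368, limma adjusted p = 0.189). It was called without WT replicate 3 (0.30, limma adjusted p = 0.0310), and the log2 fold change was 0.071 against WT replicate 3 alone.

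To compare chains without the scaling of a library, the ratio of a receptor chain to its partner was taken within each library, and the log2 ratios of the groups were compared in an exact permutation test, two-sided, in which 3 libraries against 3 cannot give a p below 0.1. Of 9 ratios, 8 could be formed, since Il17rc was at 0. Groups did not overlap for 4 of the 8, each with an exact p = 0.1, or 0.2 after Benjamini-Hochberg adjustment over the 8 ratios. Among single genes tested, 29.7% had groups without overlap, and the share among ratios of other gene pairs was not computed.

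The ratio of Csf2rb2 to Csf2rb was the tightest. It was 0.135, 0.133 and 0.1298 in WT and 0.121, 0.118 and 0.1197 in LRP5-null libraries, a 0.901-fold ratio (log2 difference −0.15). WT replicate 3, where both genes were highest, kept a ratio above all LRP5-null libraries. With GC and length trends removed the log2 difference was −0.15 again (exact permutation test p = 0.1). The windows that these genes share, described above, could shift reads from one to the other.

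The ratio of Csf2ra to both beta chains together was 1.54, 1.44 and 1.39 in WT and 1.67, 1.602 and 1.597 in LRP5-null libraries, a log2 difference of 0.16 with LRP5-null higher. With GC and length trends removed the groups overlapped (0.11, exact permutation test p = 0.3). In every library the alpha chain transcript thus exceeded the beta chain transcripts.

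The ratio of Il4ra to Il13ra1 was 0.945, 1.07 and 1.61 in WT and 1.97, 1.88 and 2.04 in LRP5-null libraries, a 1.67-fold difference (0.74 on the log2 scale). WT replicate 3 lay between the other WT libraries and the LRP5-null libraries. The difference was 0.29 on the log2 scale against WT replicate 3 alone, and 0.43 with GC and length trends removed. By contrast, the ratio of Il4ra to Il2rg, the chains of the type I receptor, was 2.54, 3.11 and 3.06 in WT and 2.85, 2.69 and 2.85 in LRP5-null libraries, with overlap (log2 difference −0.048, exact permutation test p = 0.6). With GC and length trends removed it was −0.16 without overlap (exact permutation test p = 0.1).

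The ratio of Il10rb to Il10ra was 6.14, 5.67 and 5.196 in WT and 4.89, 4.86 and 4.78 in LRP5-null libraries, a log2 difference of −0.22 without overlap. It became −0.10 against WT replicate 3 alone. The ratios of Ifngr1 to Ifngr2 (1.30 ± 0.049 in WT and 1.36 ± 0.074 in LRP5-null libraries, SD, n = 3 each) and of Ifnar1 to Ifnar2 (0.607 ± 0.037 and 0.651 ± 0.021) overlapped between the groups, with log2 differences of 0.062 and 0.10 (exact permutation test p = 0.4 and 0.3). With the same trends removed, the ratio of Ifngr1 to Ifngr2 differed by 0.10 without overlap (exact permutation test p = 0.1). The ratio of Il6ra to Il6st, 338 to 571, rests on a partner at only 0.096 to 0.14 TPM.

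**Figure D5:**
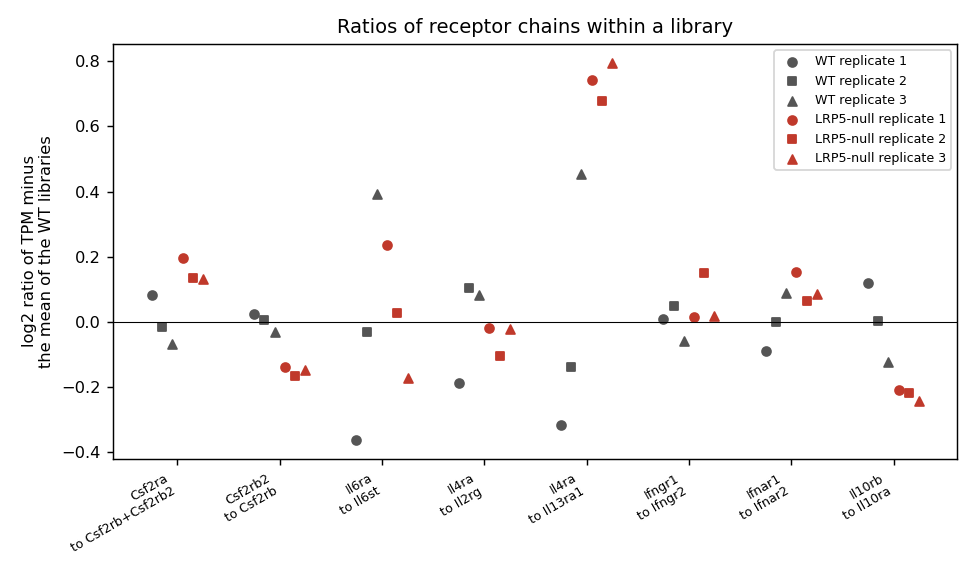
Log2 ratio of TPM of a receptor chain to its partner within a library, minus the mean of the WT libraries, for 8 pairs, with 1 point per library (grey, WT; red, LRP5-null; shape, replicate number). The red and grey points separate for Csf2ra to Csf2rb plus Csf2rb2, Csf2rb2 to Csf2rb, Il4ra to Il13ra1 and Il10rb to Il10ra, and overlap for the other 4.

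The rest of the receptor class was taken from a list of 37 receptors for other cytokines and growth factors, of which 16 passed the filter. One was called, lower in the LRP5-null libraries, a direction in which 0.266% of all genes tested were called. It was Il1rap, the accessory chain of the IL-1 and IL-33 receptors, at 29.7, 27.3 and 25.1 TPM in WT and 18.3, 18.8 and 18.2 TPM in LRP5-null libraries (log2 fold change −0.54, standard error 0.081, limma adjusted p = 0.0466). Every LRP5-null library was below every WT library. As for Il13ra1, the call was kept in 6 of 18 other ways of fitting and in 1 of the 6 fits that left out a library, the one without WT replicate 3 (limma adjusted p = 0.0103, and from 0.0881 to 0.218 in the rest). The next smallest p belonged to Il11ra1, the IL-11 binding chain, at 1.05 to 1.24 TPM in WT and 1.88 to 2.22 TPM in LRP5-null libraries (log2 fold change 0.47, limma adjusted p = 0.0648), and to Tnfrsf1b, a receptor for TNF, at 26.9 to 39.0 and 44.3 to 49.8 TPM (log2 fold change 0.53, limma adjusted p = 0.104). Groups did not overlap for 6 of the 16 receptors, 3 higher and 3 lower, beside 29.7% of all genes tested. Without WT replicate 3, 5 of the 16 were called (limma), in a fit that called 19.6% of all genes tested. They were Il1rap, which was lower in both fits, and Tgfbr1, Tnfrsf1a, Tnfrsf1b and Il11ra1, where Tgfbr1 and Tnfrsf1a are named after their values were seen.

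Of 17 ligands of these receptors in the table, Csf1, whose receptor is not a member, was the only one above 1 TPM on average, at 18.4, 16.9 and 19.4 TPM in WT and 23.0, 25.5 and 24.5 TPM in LRP5-null libraries (log2 fold change 0.40, limma adjusted p = 0.0778). Csf3 and Csf2, the ligands of the most abundant receptors, were listed at 0 in every library.

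Below the receptors, none of the 14 JAK, STAT and SOCS genes tested was called (limma), while 2 were higher and 3 lower at an unadjusted p under 0.05, a threshold that 23.5% of all genes tested passed. Among them were Socs3, an inhibitor of G-CSF and IL-6 receptor signaling (28.4 ± 3.33 TPM in WT and 39.0 ± 2.39 TPM in LRP5-null libraries, SD, n = 3 each, log2 fold change 0.45, limma adjusted p = 0.0892), and Jak1 (203 ± 11.1 and 171 ± 9.12 TPM, log2 fold change −0.24, limma adjusted p = 0.132). Of 18 adaptor, phosphatase, ubiquitin ligase and protease genes that act at the receptors, none was called (limma), with 1 higher and 4 lower at an unadjusted p under 0.05, beside the same 23.5% of all genes tested. The smallest p were those of Adam10, a shedding protease (log2 fold change −0.37, limma adjusted p = 0.106), Lyn, a Src family kinase (−0.24, limma adjusted p = 0.129), and Traf5 (0.20, limma adjusted p = 0.178). Traf3ip2, which encodes Act1, the adaptor for Il17ra, was at 0.15 to 0.54 TPM in all libraries.

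Markers of maturation and of other cell types were examined beside these results. The summed TPM of 15 mature neutrophil markers was 39477 to 42786 in WT and 37281 to 38454 in LRP5-null libraries, with 10 of the 15 lower at an unadjusted p under 0.05, beside 9.12% of all genes tested, and 0 called (limma). That of 15 immature markers overlapped between the groups (72124 to 79449 and 75086 to 79214), with 8 of the 15 higher at an unadjusted p under 0.05, beside 14.4% of all genes tested, and 0 called (limma). Monocyte and macrophage markers overlapped (566 to 726 and 638 to 691 TPM for 9 genes), and so did the 6 B cell markers (11.9 to 14.2 and 12.2 to 13.02 TPM) and the 8 erythroid markers (48.1 to 57.0 and 42.3 to 54.0 TPM). The 9 eosinophil, basophil and mast cell markers summed to 11.4 to 13.8 TPM in WT and 14.5 to 15.6 TPM in LRP5-null libraries. Among them Prg2, named after its value was seen, was called as higher (1.02 ± 0.16 and 2.79 ± 0.41 TPM, SD, n = 3 each, limma adjusted p = 0.0341). Of all genes tested, 0.532% were called in either direction. The 7 T and NK cell markers summed to 10.4 to 12.8 and 15.1 to 16.8 TPM, mostly from Cd3d, with Cd3e at 0.18 TPM or less. None of the markers of these other cell types was at 0 in all libraries. The part of such cells, or of maturation, in the differences of Il13ra1, Il10ra and Il1rap was not tested.

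Across the 6 libraries, the genes whose centred log2(TPM + 1) profile lay nearest to that of Csf3r were Zfp36, Dock8 and Themis2, with root mean square differences of 0.0081, 0.012 and 0.014, beside a spread of 0.13 of Csf3r itself. For Csf2ra, the member with the smallest p, they were Bcl9, Hinfp and again Zfp36, at 0.015, 0.017 and 0.019. With 6 libraries of 2 labels this likeness is a description only.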

How the data were processed

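The deposited TPM values were used as the authors made them. Per the methods, reads were aligned to the mouse genome (mm9) and expression was quantified with the DESeq2 pipeline. The tool that gave TPM is not given in the sources used here, and the gene identifiers are of a later annotation. The labels name a Percoll gradient and an mRNA kit, whereas the methods name cells sorted by CD11b and Ly6G, total RNA prepared with strand kept, and reads of one end. A deposited summary gives read counts for each library and the percent of reads on ribosomal RNA and in introns.

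TPM keeps no depth, so errors come only from the spread between libraries. Groups were taken from sample titles. The genes that averaged 1 TPM or more were tested together on log2(TPM + 1) in limma 3.58.1 (R 4.3.3). Its variance prior followed expression, and p-values were adjusted by Benjamini-Hochberg. DESeq2 was not run, since the file holds no counts. On this scale the change of low genes is understated. Ratios of chains were compared by an exact permutation test, two-sided. Both tests were tested on simulated data. Coordinates and sequences came from GENCODE M1 (NCBIM37), which covered 89.7% of the genes tested.

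The members and lists were chosen with earlier results of these data known. The genes named are the members, their partner chains, called genes and the 3 of smallest p in each list, and the 3 nearest to Csf3r and to the member of smallest p. One gene that this rule names is not reported here. The alternatives were another pseudocount (0.1), filters (none, or 5 TPM), scalings (median-ratio, quantile, or dropping the 20 most abundant and the mitochondrially encoded genes), a robust or a constant variance prior in limma, leaving out single libraries, blocking on replicate number, a term for ribosomal reads, WT replicate 3 alone, and removal of GC and length trends. The last was added for the ratios after the data had been seen.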

Additional observations from a re-analysis of the deposited data

How the results depend on the processing

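Over the 10 receptor genes and 18 alternatives, 152 of 180 log2 fold changes kept their direction and stayed uncalled, 26 changed sign and 2 became called. The number of receptor genes called was 0 except without WT replicate 3, where it was 2 (0 to 2 over the fits that left out 1 library). Signs changed for Csf2rb, Il10rb and Il6ra with median-ratio scaling (−0.0082, −0.033 and −0.030), with GC and length trends removed (−0.074, −0.0010 and −0.058), with the ribosomal share as a covariate (−0.13, −0.016 and −0.090) and against WT replicate 3 alone (−0.20, −0.026 and −0.13). Ifnar1 became −0.042 with the covariate and −0.081 against WT replicate 3 alone, where Csf3r became −0.025. With 1 library left out, Csf2rb ranged from −0.044 to 0.15, Il10rb from −0.012 to 0.030, Il6ra from −0.023 to 0.086, Il4ra from −0.10 to 0.063, Il17ra from −0.10 to 0.024 and the partner chain Ifnar2 from −0.088 to 0.00022. The log2 ratio of Il6ra to Il6st, 0.030 with all libraries, ranged from −0.15 to 0.23 with 1 library left out and was −0.36 against WT replicate 3 alone, and that of Il4ra to Il2rg ranged from −0.14 to 0.0038. The cause of these changes was not tested.

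The number of genes called over the whole table was 52, and 2 to 1920 with 1 library left out. It was 3 without a filter, 29 with a mean of at least 5 TPM, 98 when rescaled without mitochondrially encoded and the most abundant genes (71 of them higher, against 26 of 52), 6 with the covariate, 6 against WT replicate 3 alone and 430 with GC and length trends removed (157 higher). Partner chains called, 1 with all libraries, were 0 to 2 with 1 library left out and 0 with no filter, quantile normalization, rescaling, no trend, the covariate or WT replicate 3 alone. Other receptors called, also 1, were 0 to 5 with 1 library left out, 0 in the same alternatives as the partner chains, and 2 with GC and length trends removed. Of 14 JAK, STAT and SOCS genes tested, 0 were called with all libraries. The count was 0 to 4 with 1 library left out and 3 with the trends removed. For 18 adaptors and phosphatases tested, these counts were 0, 0 to 1 and 3. Beside them, 19.6% of all genes tested were called without WT replicate 3, and 430 of 8769 with the trends removed. In each of these lists and over the whole table, the highest count of the fits that left out 1 library was the one without WT replicate 3.

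Same-numbered libraries deviated from their group means with correlations of 0.23, −0.0080 and 0.13 across genes. Since these were not all above 0.1, the numbers were not taken to pair the libraries. With the replicate number as a block, 4 genes were called over the whole table, 0 partner chains and 0 other receptors, and the calls of the members did not change. The libraries deviated most like the one of their own number in replicates 1 and 3 and not in replicate 2. TPM holds no read counts, so the depth behind low partner chains such as Il6st and Il17rc is unknown.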
